A study of Rattus norvegicus with 23 samples.

Results

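The heart apex of rats with chronic kidney disease (CKD) that had received a kidney from a CKD donor was compared with that of healthy rats given the same kind of kidney, 6 weeks after transplantation. Libraries were assigned by their titles: CD-CR (CKD donor, CKD recipient) holds 6 libraries and CD-HR (CKD donor, healthy recipient) holds 6, together 12 of the 23 in the series. All animals were of the inbred Lewis strain, so the kidneys were isografts, and both groups carry a graft from a diseased donor. The disease had been produced by bilateral ablation of renal tissue, then hastened with the nitric oxide synthase inhibitor L-NNA in the water (200 mg/L) and 6% NaCl in the chow. Both agents stopped at a proteinuria of 200 mg per 24 h, and rats entered the protocol at 100 mg per 24 h off treatment. The new kidney replaced the left one, with an ischaemia time of 30 min in all groups. The right native kidney was taken out 10 to 14 days afterwards, so each heart then depended on the graft alone. By the labels the groups differ in the recipient's own earlier disease, which includes ablation, L-NNA and salt, whose separate effects cannot be told apart. They also differ in the prefix of the animal names, described with the libraries. The other 11 libraries, with a healthy donor kidney, are HD-CR (CKD recipient, n = 5) and HD-HR (healthy recipient, n = 6), and they also entered the filter and the estimate of spread behind the reported tests. The labels give no age or sex.

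In chronic kidney disease the heart is exposed to high pressure and volume load, retained uraemic solutes and altered mineral and hormone balance, and it typically hypertrophies, becomes fibrotic and loses capillaries. Loss of nitric oxide adds to this by constricting vessels and raising pressure. Replacing the kidney removes part of that load, and the comparison asks which transcripts in the heart still differ when the recipient had been ill and the new kidney was itself diseased.

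The deposited files identify genes by Ensembl rat number only, and the reference table at hand pairs none of these numbers with a symbol. Genes are therefore given by number, the labelled tissue could not be checked against heart marker genes, and no pathway or cell type list could be counted. In bulk tissue, fewer cells of a type and less RNA per cell cannot be told apart.

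Libraries of CD-CR held 7801127 to 12444980 reads counted in genes and those of CD-HR 7391929 to 12169291. The 10 most abundant genes took 48.8 to 67.6% of the reads in CD-CR and 55.3 to 68.6% in CD-HR. Of 5 technical measures, none differed past the correction: the closest were reads outside genes, at 16.5% ± 3.46 of the counted reads in CD-CR and 20.4% ± 3.95 in CD-HR (SD, n = 6 each, two-sided exact permutation p = 0.0909, Benjamini-Hochberg 0.184). Genes detected averaged 14550 ± 250 in CD-CR (n = 6) and 14232 ± 315 in CD-HR (n = 6; exact permutation p = 0.0931, adjusted 0.184). The log2 of non-unique alignments per counted read averaged 0.33 ± 0.95 in CD-CR and 1.44 ± 1.21 in CD-HR (exact permutation p = 0.11, adjusted 0.184). With n = 6 each, a test that does not pass does not show that the groups are technically alike. CD-CR1 stood apart, with the lowest share for the 10 most abundant genes and a median correlation of log2 levels of 0.938 to its own group, against 0.955 to 0.977 for the other CD-CR libraries. CD-HR5 had 10.7 non-unique alignments per counted read, against at most 3.67 in the other 11 libraries. Leaving both out reduced the genes called below from 181 to 17. The animal names of all 6 CD-HR libraries begin with 13, while 5 of the CD-CR libraries begin with 12 and only CD-CR5 begins with 13. What the prefix stands for is not stated in the labels.

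CD-CR and CD-HR differed in 181 of 11568 genes tested (1.56%), of which 126 rose (1.09%) and 55 fell (0.475%) in CD-CR relative to CD-HR. A gene was called at a Benjamini-Hochberg adjusted p under 0.05 in edgeR's quasi-likelihood test over all 23 libraries. A fit of CD-CR and CD-HR alone called 32, and the fit with the name prefix as a covariate called 0. Recipient disease and prefix nearly coincide, so their parts in the 181 calls cannot be told apart. Rises were the larger changes, with a median log2 fold change of 1.14, and 74 of the 126 were at least 2-fold and 19 at least 4-fold. Falls had a median log2 fold change of -0.79, with 17 of 55 at least 2-fold and 1 at least 4-fold. At the small end, 12 rises and 15 falls were under 1.5-fold, down to a log2 change of 0.38 upward and -0.44 downward. Fold changes are relative to the bulk of genes, which the TMM scaling centres near 0 (median 0.00 over all genes tested), so a shift shared by most genes would not be seen.

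**Figure D1:**
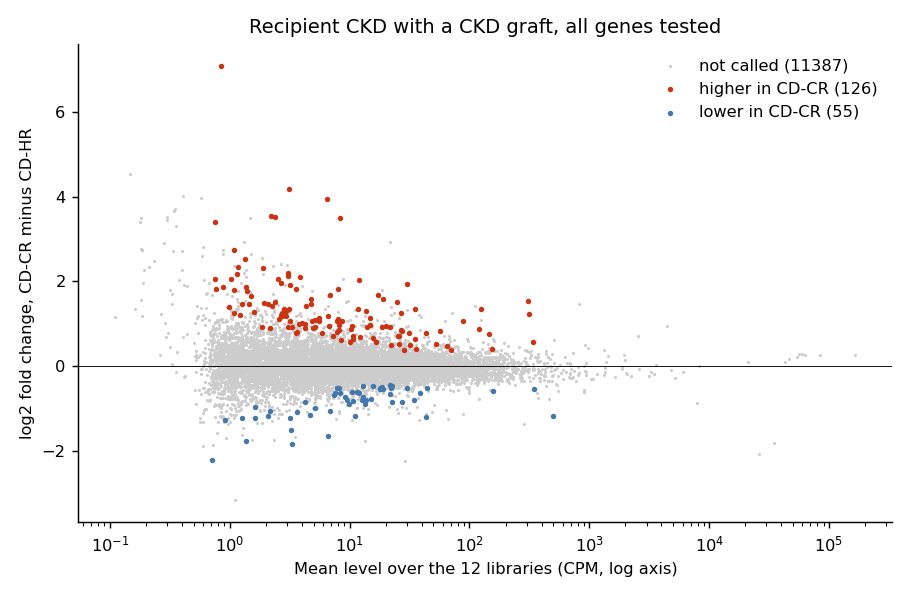
Each point is 1 of the 11568 genes tested, with the mean level over the 12 libraries in CPM on a log axis across and the log2 fold change of CD-CR against CD-HR upward. The 126 genes called higher reach larger fold changes than the 55 called lower, and both lie mostly between 1 and 100 CPM.

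The called genes were of ordinary abundance. In TMM-scaled CPM (counts scaled to the library total), the median level of the 126 genes that rose was 5.71 over the 12 libraries, that of the 55 that fell was 11.1, and that of all genes tested was 9.36. Of 5397 genes between 1 and 10 CPM, 72 rose and 23 fell (1.76% called), and of 4990 genes between 10 and 100 CPM, 41 rose and 27 fell (1.36%). Above 100 CPM, 7 of 570 genes rose and 3 fell (1.75%), with a highest level of 341.5 CPM among rises and 499.6 CPM among falls. No gene above 499.6 CPM was called. The 126 genes together made up 0.192% of all CPM in CD-HR and 0.367% in CD-CR, and the 55 genes 0.209% and 0.118%.

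In 58 of the 126 genes that rose, every CD-CR library lay above every CD-HR library. Of the 55 that fell, 20 separated completely. Over all genes tested, such complete separation upward was seen in 89 genes (0.769%) and downward in 48 (0.415%). No called gene had fewer than 3 of the 6 CD-CR libraries beyond the CD-HR range, a measure whose share over all genes was not computed. The genes were called on these same libraries, which favours separation.

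ENSRNOG00000028311 showed the clearest contrast of the named genes between CD-CR and CD-HR, with little signal in CD-HR and a steady level in CD-CR. Its level in CD-HR ran from 0.115 CPM over a median of 0.674 to 1.47 CPM, which is 1 to 16 reads per library. In CD-CR it ran from 9.24 CPM over a median of 11.0 to 16.3 CPM, or 77 to 185 reads. All 6 CD-CR libraries lay above all 6 CD-HR libraries, with CD-CR5, the only one of prefix 13, the lowest of its group and still far above the CD-HR range. The fitted increase was 15.4-fold (log2 3.94 ± 0.55 SE, edgeR adjusted p = 0.00121). It was called with each of the 12 libraries left out in turn, with log2 fold changes of 3.73 to 4.27. With the prefix as a covariate the estimate was 3.65 (edgeR adjusted p = 0.153) and within prefix 13 alone it was 3.56 (edgeR adjusted p = 0.866), so the call was lost at a similar size. In the rats with a healthy graft the same gene was at 10.3 ± 2.32 CPM in HD-CR (SD, n = 5) and at 2.89 ± 3.40 CPM in HD-HR (n = 6), where HD-HR6 alone reached 9.49 CPM.

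ENSRNOG00000048472 had the largest fitted rise of the genes with at least 1 CPM, and rested on a few libraries. The 6 CD-CR values were 4.92, 3.15, 0.381, 1.43, 0.240 and 25.4 CPM in CD-CR1 to CD-CR6. CD-HR ran from 0.102 CPM over a median of 0.215 to 0.827 CPM. CD-CR3 and CD-CR5 lay inside the CD-HR range, and CD-CR6 held most of the group's reads (242 of them). The fitted log2 fold change was 4.17 ± 0.96 (SE, edgeR adjusted p = 0.03). Leaving out CD-HR3 or CD-HR4, or else CD-HR5 or CD-HR6, ended the call (log2 3.97 to 4.19). Leaving out CD-CR1, CD-CR2, CD-CR4 or CD-CR6 put the gene below the count filter, so that it was not tested. In libraries of prefix 13 alone, where CD-CR5 is the only CD-CR library, the estimate turned to -0.37. By limma-voom it was 2.82 (adjusted p = 0.186), and the call was also lost with no filter on low counts (4.17, edgeR adjusted p = 0.0514), and with either the name prefix (3.59) or 2 surrogate variables (3.16) added as covariates.

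ENSRNOG00000013408 fell to a narrow low level in CKD recipients. CD-HR ran from 1.62 CPM over a median of 5.02 to 11.5 CPM, and CD-CR from 0.840 over 1.41 to 2.19 CPM. Of the CD-CR libraries only CD-CR4 reached into the CD-HR range, where CD-HR3 and CD-HR6 were lowest. The log2 fold change was -1.84 ± 0.39 (SE, edgeR adjusted p = 0.0196). Without CD-HR4, the library with 11.5 CPM, it was -1.39 and did not pass (edgeR adjusted p = 0.0661). It also did not pass by limma-voom (-1.57, adjusted p = 0.0786), in the fit of CD-CR and CD-HR alone (-1.83), without CD-CR1 and CD-HR5 (-1.83), with non-unique alignments (-1.67), the prefix (-2.20) or 2 surrogate variables (-1.30) as covariates, or within prefix 13 (-2.61). HD-CR was at 1.55 ± 0.280 CPM (SD, n = 5) and HD-HR at 3.20 ± 1.59 CPM (n = 6).

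ENSRNOG00000042516 was low in all groups, at 4.70 CPM or less in every library. CD-HR ran from 0.818 CPM over a median of 1.21 to 4.70 CPM, with CD-HR4 and CD-HR6 at 4.70 and 3.81 CPM and the other 4 at 1.32 CPM or less. CD-CR ran from 0.176 over 0.701 to 0.877 CPM, so the groups overlapped slightly. The log2 fold change was -1.77 ± 0.45 (SE, edgeR adjusted p = 0.0412), and the call was lost without any 1 of CD-CR1, CD-CR2, CD-CR3, CD-CR6, CD-HR4, CD-HR5 or CD-HR6 (log2 -1.86 to -1.32). With the replicate numbers of the titles as a block it was -1.65 (edgeR adjusted p = 0.0733). It did not pass by limma-voom (-1.58, adjusted p = 0.105), without CD-CR1 and CD-HR5 (-1.64), with the prefix (-2.11) or 2 surrogate variables (-0.80) as covariates, or within prefix 13 (-1.36). HD-HR was at 2.63 ± 0.982 CPM (SD, n = 6) and HD-CR at 0.929 ± 0.481 CPM (n = 5).

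**Figure D2:**
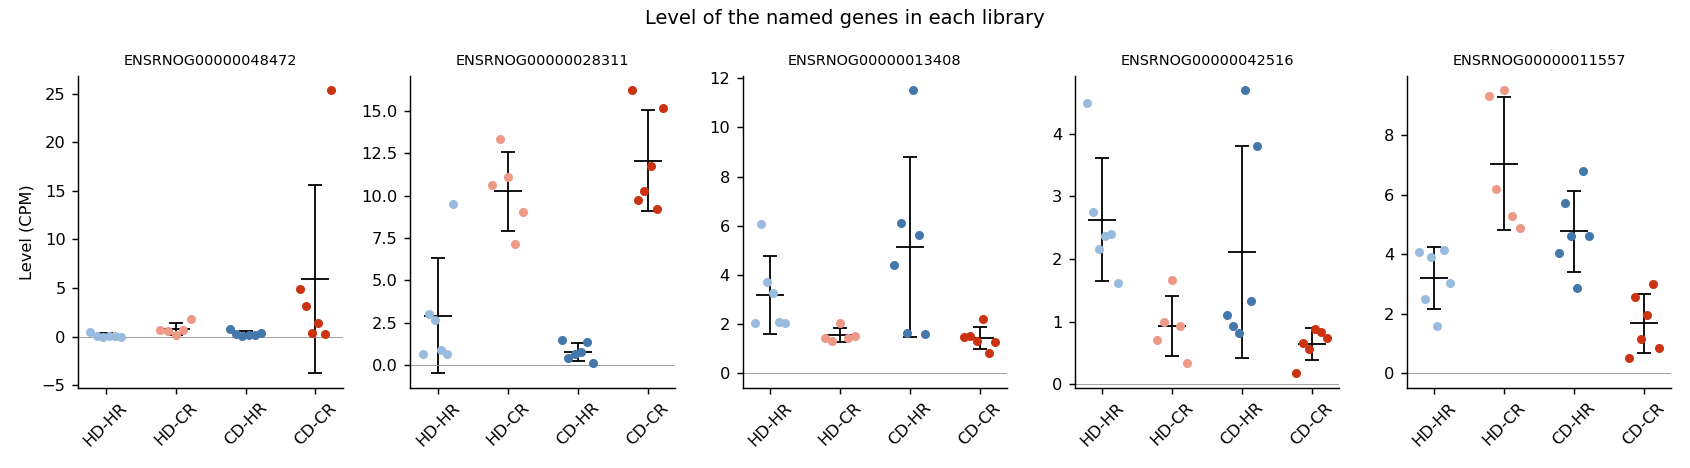
Level in CPM of the 5 named genes in every library, by group, with the bar and whiskers giving mean ± SD (n = 6, HD-CR n = 5). ENSRNOG00000028311 separates CKD from healthy recipients except for HD-HR6, ENSRNOG00000048472 is carried by CD-CR6 at 25.4 CPM, and ENSRNOG00000011557 is lowest in CD-CR and highest in HD-CR.

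A single called gene had no read in any of the 6 CD-HR libraries. It had 4 to 29 reads in each CD-CR library, or 0.480 to 3.18 CPM. Set against the 3 reads over the whole CD-HR group that a count of 0 allows, its pooled level in CD-CR was 32.1-fold higher. This ratio does not include the spread between rats, and neither it nor the fitted fold change is a lower bound. HD-CR held 1.16 to 2.88 CPM of it and HD-HR 0 to 1.44 CPM. With this gene set to the pooled ratio, the median log2 fold change of the 126 rises stayed at 1.14.

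How many genes were called depended on individual rats. The 181 calls became 61 without CD-CR1, 79 without CD-CR2, 48 without CD-HR4, 92 without CD-HR5 and 103 without CD-HR6, and 329 without CD-CR4 and 359 without CD-HR1. In each of the 12 fits that left out a library, every one of the 181 genes still tested kept its direction, as the shared libraries favour. A core of 40 genes, 28 that rose and 12 that fell, was called in all 12 of those fits. The 28 core rises had a median log2 fold change of 1.80, from 0.52 upward, with 23 at least 2-fold and 26 without overlap between the groups. The 12 core falls had a median of -0.87, between -1.50 and -0.58, with 4 at least 2-fold and 7 without overlap. Over all genes tested, 0.769% separated upward and 0.415% downward. The core was chosen on these same libraries, which favours genes without overlap. Core genes spanned 0.753 to 88.9 CPM among rises and 3.22 to 158.0 CPM among falls.

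The size of the difference varied among the CD-CR libraries. For each library, the median log2 difference from the CD-HR mean was taken over the 126 genes that rose: it was 1.62 in CD-CR1, 1.16 in CD-CR2, 1.09 in CD-CR6, 0.87 in CD-CR3, 0.84 in CD-CR5 and 0.82 in CD-CR4. CD-CR1 was the highest of the 6 in 70 of the 126 genes (55.6%), against 26.1% of all genes tested. For the 55 genes that fell, the medians were -0.91 in CD-CR1, -0.87 in CD-CR2, -0.71 in CD-CR5 and CD-CR6, -0.61 in CD-CR3 and -0.58 in CD-CR4. CD-CR2 was the lowest of the 6 in 21 of these genes and CD-CR1 in 19. Among the healthy recipients, CD-HR5 was the highest of the 6 in 24 of the 55 genes (43.6%, against 19.9% of all genes) and CD-HR4 in 15. The part of the composition of CD-CR1 and of the non-unique alignments of CD-HR5 in these values was not tested by gene. These libraries helped to choose the genes, so the values describe the calls and are no test of them.

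**Figure D3:**
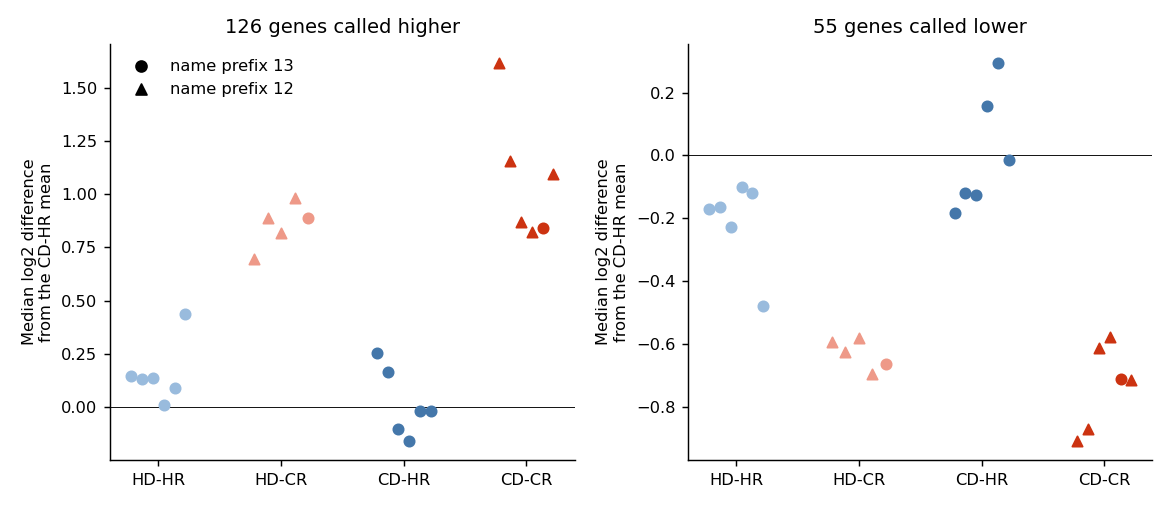
Median log2 difference of each library from the CD-HR mean over the genes called higher (left) and lower (right), by group, with triangles for name prefix 12 and circles for 13. All 11 CKD recipients lie beyond all 12 healthy recipients in both panels, and HD-HR6 is the healthy recipient nearest to them. The genes were chosen on CD-CR against CD-HR, which favours the separation of these groups and shifts the others from the CD-HR mean.

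The HD-CR and HD-HR libraries took no part in the contrast that chose the genes, apart from the filter and the shared estimate of spread. The prefix divides them in nearly the same way: 4 of the 5 HD-CR libraries have prefix 12 and all 6 HD-HR have 13, so recipient and prefix cannot be told apart in these values. Over the 126 rises, the per-library medians, measured from the CD-HR mean, lay between 0.70 and 0.98 for HD-CR (n = 5) and between 0.01 and 0.43 for HD-HR (n = 6). Over the 55 falls, HD-CR libraries lay between -0.69 and -0.58 and HD-HR libraries between -0.48 and -0.10. HD-CR5, the HD-CR library of prefix 13, was at 0.89 and -0.66. In both lists the HD-CR libraries lay in or next to the span of CD-CR, at 0.82 to 1.62 and -0.91 to -0.58. Choosing genes on CD-CR against CD-HR tends to shift any other group the called way from the CD-HR mean. The HD-HR libraries were shifted so too, and part of the closeness of HD-CR to CD-CR comes from this choice. With the healthy graft, HD-CR lay above HD-HR without overlap in 28 of the 126 genes (22.2%, against 1.82% of all genes) and below it in 13 of the 55 (23.6%, against 1.77%). The median log2 difference of HD-CR from HD-HR was 0.66 for the rises and -0.43 for the falls. These sizes are smaller than the 1.14 and -0.79 seen with the CKD graft, but the genes were chosen on the latter, which enlarges it.

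Whether the recipient response itself differed with the kind of graft was tested by the interaction of donor and recipient. The edgeR test called 1 of 11568 genes (0.00864%), and 377 genes (3.26%) had an unadjusted p under 0.05. Among the 181 genes, 29 had an unadjusted p under 0.05 in that test. The 181 were chosen on CD-CR against CD-HR, which is part of the interaction. That choice raises the count, so it is no evidence of a difference between grafts. The gene called was ENSRNOG00000011557, which moved in opposite directions with the 2 kinds of graft. With a CKD graft it fell in CKD recipients, from 2.86 CPM over a median of 4.61 to 6.79 CPM in CD-HR down to 0.527 over 1.56 to 3.00 CPM in CD-CR (log2 -1.50 ± 0.32 SE, edgeR adjusted p = 0.0196). Only CD-CR5 reached into the CD-HR range, and this call held with each of the 12 libraries left out. With a healthy graft the estimate was upward and did not pass (log2 1.14, edgeR adjusted p = 0.0694): HD-HR ran from 1.58 over 3.48 to 4.16 CPM and HD-CR from 4.88 over 6.18 to 9.51 CPM, without overlap. The difference between the responses was -2.64 ± 0.44 (SE, edgeR adjusted p = 0.0304). That call was lost without any 1 of CD-CR3, CD-CR4, CD-CR6, CD-HR2, CD-HR3, CD-HR5, HD-CR1, HD-CR2, HD-CR3, HD-HR2, HD-HR4 or HD-HR6, where the estimate stayed between -2.70 and -2.50, with the replicate block (-2.63, edgeR adjusted p = 0.0736), and without CD-CR1 and CD-HR5 together (-2.34, edgeR adjusted p = 0.0633). Within prefix 13, with 1 CD-CR and 1 HD-CR library, the estimate was -1.28 (edgeR adjusted p = 0.788).

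The name prefix nearly coincides with the groups, so it was examined in the libraries that share one. With the prefix as a covariate edgeR called 0 genes, with 1400 of 11568 at an unadjusted p under 0.05. All 181 genes, chosen on the same libraries, kept their direction in that fit, and their median size was 0.93 against 1.03 without the covariate, while the median SE rose from 0.23 to 0.35. Among libraries of prefix 13 alone, CD-CR5 is the only CD-CR library, set against the 6 CD-HR. There 173 of the 176 genes still tested kept their direction, with a median size of 0.77. In CD-CR5 itself, 98 of the 126 genes lay above the CD-HR range and 47 of the 55 below it. CD-CR5 and the 6 CD-HR libraries had all taken part in the choice of the genes. That favours these counts and the 173 kept directions, so they cannot tell prefix from recipient. The share of all genes in which CD-CR5 lay beyond the CD-HR range was not computed.

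A second set of libraries was then used that shares no animal with the choice of genes. The 5 CD-CR libraries of prefix 12 were fitted against the 6 CD-HR alone, which called 32 genes, 28 higher and 4 lower. These genes were then read in 8 other libraries, all of prefix 13: CD-CR5 and HD-CR5 against the 6 HD-HR. CD-CR5 lay on the chosen side of the HD-HR mean in 31 of the 32 genes (96.9%), with a median log2 difference of 1.03 in the chosen direction, and beyond the whole HD-HR range in 21. HD-CR5 lay on the chosen side in 26 of 32 (81.3%), with a median of 0.78, and beyond the range in 18. Over all 10904 genes tested the corresponding shares on the chosen side were 64.2% and 62.2%, with medians of 0.10 and 0.15. Beyond the HD-HR range on that side lay 65.6% (CD-CR5) and 56.3% (HD-CR5) of the 32 genes, against 24.3% and 36.0% of all genes tested. The 28 rises had a median log2 fold change of 1.72 in the libraries that chose them, and of 1.15 in CD-CR5 and 0.89 in HD-CR5. For the 4 falls the medians, in the chosen direction, were 0.91 in the choosing libraries, 0.46 in CD-CR5 and 0.15 in HD-CR5. CD-CR5 differs from HD-HR in its graft as well as in the recipient. Each of these values rests on 1 animal, and no test was made of the counts, since genes are not independent replicates.

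**Figure D4:**
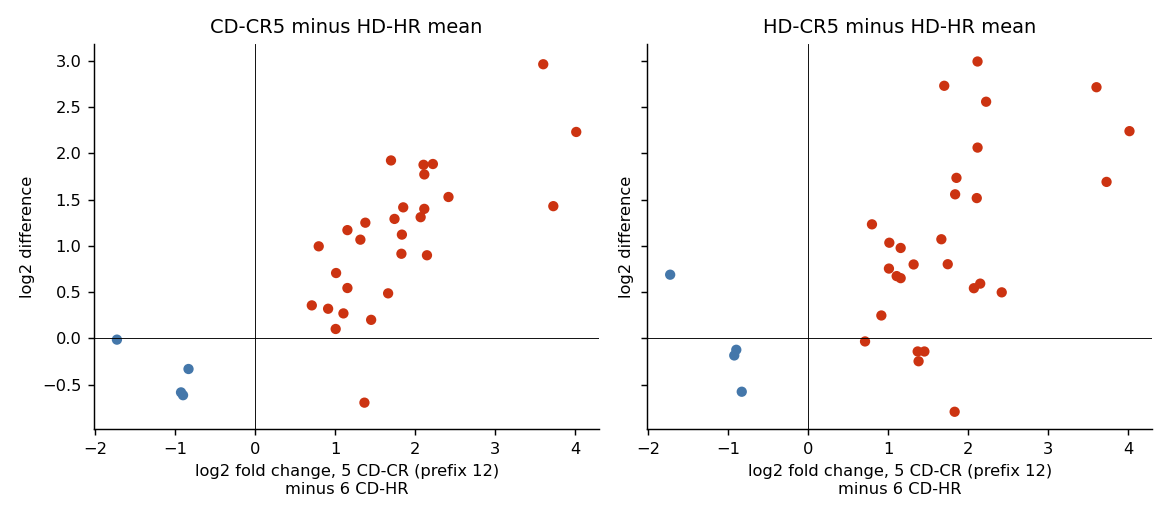
Each point is 1 of the 32 genes called in 5 CD-CR libraries of prefix 12 against 6 CD-HR, with that log2 fold change across and, upward, the log2 difference of CD-CR5 (left) or HD-CR5 (right) from the mean of the 6 HD-HR libraries, all of prefix 13. On the left 31 of 32 points and on the right 26 of 32 lie on the side of zero on which they were chosen.

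**Figure D5:**
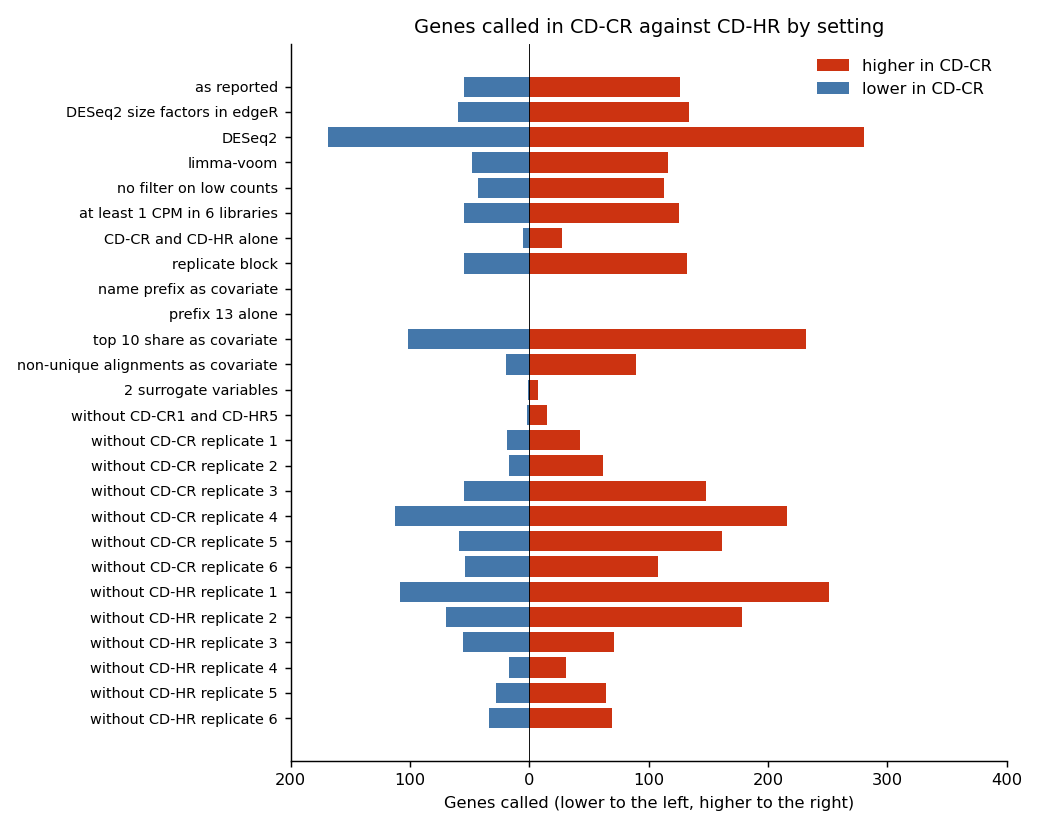
Number of genes called higher (right, red) and lower (left, blue) in CD-CR against CD-HR under each setting plotted, all at an adjusted p under 0.05, with the reported fit on top (126 and 55). The plotted counts range from 0 with the prefix as a covariate to 280 and 169 with DESeq2.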

How the data were processed

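Polyadenylated RNA of the heart apex was sequenced from directional libraries, per the labels' protocols. The deposited files hold raw read counts for 26405 Ensembl genes and 5 summary lines, which were left out of library sizes. The authors used the aligner STAR 2.4.2a, the counter HTSeq 0.6.1p1 and Picard on build Rnor_5.0, per the submitters' processing notes. Annotation release, strand setting and duplicate removal are not stated in the labels, so overlapping, antisense or near-identical genes may share reads.

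All 23 libraries were fitted together with a mean per group in edgeR 4.0.16 (R 4.3.3; TMM, filterByExpr, robust glmQLFit, glmQLFTest), with Benjamini-Hochberg adjustment over 11568 genes. SE is the log2 fold change divided by the root of F; CPM are TMM-scaled; log2 CPM used a prior count of 2. Depth and counting error limit low genes (1 read is about 0.1 CPM). The code was tested on simulated data. No library pair of a group agreed within sampling noise (lowest chi-square per degree of freedom 11.8). Libraries carry distinct animal names.

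Alternatives used DESeq2 1.42.0, limma-voom 3.58.1, sva 3.50.0, other filters, covariates and left-out libraries. Same-numbered libraries are not stated to be paired. The comparison and lists were chosen with earlier results of these data known. The 45 gene lists written could not be matched to identifiers (0 matched). By rule, the 2 largest rises and falls with at least 1 CPM are named, plus the gene called in the interaction. No sequence is shown, since no identifier matched.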

Additional observations from a re-analysis of the deposited data

Results flagged for a closer look

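A single distant library was looked for in 20 sets of 6 values (5 technical measures and 5 genes, in CD-CR and CD-HR). By Dixon's test 3 libraries stood apart. For normally distributed values chance flags about 1 set in 20. That rate need not hold for the 5 genes, which were chosen on these same libraries and include low counts. CD-CR1 gave 48.8% of its reads to the 10 most abundant genes, with the next CD-CR library at 63.3%. CD-CR6 had 25.4 CPM of ENSRNOG00000048472, with the next library at 4.92 CPM. CD-HR1 had 0.827 CPM of the same gene (9 reads), with the next at 0.346 CPM. For ENSRNOG00000011557, the difference between CKD and healthy recipients was unlike with the 2 kinds of graft by the interaction test, at a log2 difference of -2.64. That call was lost in 12 of the 23 fits that left out 1 library. Recipient and name prefix nearly coincide with both kinds of graft.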

How the results depend on the processing

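Against 181 genes called (126 higher, 55 lower), DESeq2 gave 449 (280 and 169), the 2 groups alone 32 (27 and 5), the prefix as a covariate 0, prefix 13 alone 0, the share of reads in the 10 most abundant genes as a covariate 334 (232 and 102), 2 surrogate variables 8 (7 and 1), leaving out CD-CR1 and CD-HR5 (chosen after seeing the data) 17 (15 and 2), an adjusted p under 0.01 22 (18 and 4), and one under 0.1 504. Non-unique alignments as a covariate gave 109 (89 and 20), which moved the share of rises from 69.6 to 81.7%. Leaving out 1 library gave 48 to 359 genes. For the interaction, against 1 gene, DESeq2, the top-10 share and 2 surrogate variables gave 2 each. The replicate block, leaving out CD-CR1 and CD-HR5, and an adjusted p under 0.01 gave 0. At an unadjusted p under 0.05 there were 349 of 11568 genes with the replicate block and 304 of 11528 without CD-CR1 and CD-HR5. Within prefix 13, with 1 CD-CR and 1 HD-CR library, the estimate for ENSRNOG00000011557 was -1.28. Leaving out 1 library gave 0 to 2 genes. The cause of these differences was not tested. ENSRNOG00000048472 reversed in prefix 13 alone (-0.37), and fell below the filter, with no value, in the 2 groups alone, without CD-CR1 and CD-HR5 and at a minimum of 1 CPM in 6 libraries; ENSRNOG00000042516 did so in the 2 groups alone.

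The replicate block gave 132 higher and 55 lower, 144 of the 181 genes among them. Same-numbered libraries of CD-CR and CD-HR correlated at -0.17 to 0.36, over 0.1 in 3 of 6 pairs, and 2 of 6 CD-CR libraries correlated best with their own number. DESeq2 size factors in edgeR, limma-voom and both other filters kept the counts of calls within 1.5 times. Of the left-out prefix 13 libraries, the share on the chosen side was 93.8% for the mean of both, 81.3% without CD-CR5, 96.9% without HD-CR5 and 93.8% with DESeq2 size factors.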

Other observations

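HD-HR6, a healthy recipient with a healthy graft, was the healthy animal nearest to the CKD recipients in the genes called between CD-CR and CD-HR. Its median log2 difference from the CD-HR mean was 0.43 over the 126 genes that rose and -0.48 over the 55 that fell, where the other 5 HD-HR libraries ran from 0.01 to 0.14 and from -0.23 to -0.10. It also held 9.49 CPM of ENSRNOG00000028311, against 0.611 to 3.00 CPM in the other HD-HR libraries.

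On the first principal component of the 12 libraries (27.5% of the variance), CD-CR1 was at 57.8 and the other CD-CR libraries between -1.19 and 21.8, while CD-HR1 was at 6.41 and the other 5 CD-HR libraries between -29.5 and -13.3. On that component CD-HR1 alone lay among the CD-CR libraries, above CD-CR3, CD-CR4 and CD-CR5. By median correlation of log2 levels, CD-HR1 (0.968 against 0.963) and CD-HR3 (0.967 against 0.965) were slightly closer to CD-CR than to CD-HR. Each other library was closer to its own group.

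The spread within groups was alike in size: the common biological coefficient of variation was 22.8% in CD-CR and 21.4% in CD-HR, and 18.3% in CD-CR without CD-CR1.

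One gene had 1 to 12 reads in each CD-HR library and 0 in every CD-CR library, too few to be tested.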
